A study of Mus musculus with 4 samples.

Results

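The DEAD-box and DEAH-box RNA helicase genes were taken as every protein-coding mouse gene whose symbol is Ddx or Dhx followed by a digit, which gave 53 of 21951 protein-coding genes in GENCODE release M21. RNA bound to IGF2BP2, a protein described as a reader of the m6A methyl mark on mRNA, had been immunoprecipitated from BMDMs (macrophages grown from bone marrow in culture) and sequenced. The series has 2 IGF2BP2_IP libraries, each with its own list of peaks, and 2 IGF2BP2_input libraries, whose values were not used here. For the immunoprecipitates the labels give an IGF2BP2 antibody in one field and a Flag monoclonal in the protocol, and for the input they give none, so the antibody is not settled by them. Strain, genotype, age and stimulation of the cells are not given in the labels, which also do not say whether the replicates were separate cultures or animals.

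DEAD-box and DEAH-box helicases are ATP-driven enzymes that open RNA duplexes or strip proteins from RNA, and are named after the amino acids of a conserved motif at their ATP-binding site. Members act at nearly every step in the life of an RNA: splicing, export, ribosome assembly, translation and decay. In macrophages a few of them, above all the product of Ddx58 (RIG-I), are known as sensors of viral RNA.

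A peak is a stretch of genome where the authors found tags (sequenced fragments) piled up, and its tag count is a whole number with a lowest value of 3 in both lists. Counts are given per library, with n = 2 immunoprecipitation libraries. Some peaks of a gene met end to end at the junction of neighbouring exons. Whether a fragment across such a junction was counted in both peaks was not tested. Summed tags and repeated positions of adjoining exons may therefore hold fragments in common. The helicase genes held 68 of 15511 peaks in replicate 1 and 103 of 22570 in replicate 2, counting peaks on the gene's own strand. These sense peaks held 598 and 1173 tags, or 0.364% (exact binomial 95% interval 0.335 to 0.394) and 0.397% (0.374 to 0.42) of all tags in sense peaks of protein-coding genes. The tags in all peaks, 189393 and 324456, are not library sizes, and the depth of the libraries is unknown. Without molecular identifiers the intervals cover counting error only. No input or expression value was used, so a high tag count cannot be told apart from an abundant mRNA. Of 8 macrophage markers, 5 had a peak in replicate 1 and 6 in replicate 2, with 2541 and 4374 tags in sum; Lyz2 and Cd14 had none. Among 19 markers of neutrophils, T cells, B cells, dendritic cells, erythroid cells and stroma, Mpo had 0 and 10 tags, Cd3e had 3 and 0, and the others had no peak.

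The sequences under 8 coding positions with peaks in both libraries are shown first; they were chosen after their values were seen. Dhx16, Dhx9, Ddx3y and Ddx46 are shown for peaks with identical ends in the 2 libraries. Dhx38 and Ddx21 are shown for the highest summed tags among the remaining coding stretches, and Ddx42 for its GGAC matches. Ddx39 is shown because it holds the codons of its form of the box, which reads DECD and not DEAD. The repeated positions of Ddx5 (26 and 22 tags, intronic) and Ddx3x (15 and 26, mostly 3′ UTR) are stronger than several of these and are not printed. Each printed sequence is the stretch common to both peaks, read 5′ to 3′ on the mRNA strand, from the GENCODE M21 principal transcript on GRCm38. Capitals mark GGAC, a core form of the m6A consensus. The 4 peaks with identical ends began and ended at annotated exon boundaries in both libraries, so their ends say no more than that both cover the same exon.
Dhx16 exon 3, chr17:35881630-35881795, plus strand: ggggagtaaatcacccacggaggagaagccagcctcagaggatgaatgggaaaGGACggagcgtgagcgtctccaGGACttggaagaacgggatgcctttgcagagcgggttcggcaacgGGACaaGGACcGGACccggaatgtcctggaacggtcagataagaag
Dhx9 exon 13, chr1:153469600-153469741, minus strand: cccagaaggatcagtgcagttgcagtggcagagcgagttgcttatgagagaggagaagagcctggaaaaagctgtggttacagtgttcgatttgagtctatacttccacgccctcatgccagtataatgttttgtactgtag
Ddx3y exon 5, chrY:1279423-1279578, minus strand: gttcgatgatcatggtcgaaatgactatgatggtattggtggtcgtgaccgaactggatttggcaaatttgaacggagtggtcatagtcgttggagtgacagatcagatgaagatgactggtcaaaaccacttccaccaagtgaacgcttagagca
Ddx46 exon 14, chr13:55663219-55663383, plus strand: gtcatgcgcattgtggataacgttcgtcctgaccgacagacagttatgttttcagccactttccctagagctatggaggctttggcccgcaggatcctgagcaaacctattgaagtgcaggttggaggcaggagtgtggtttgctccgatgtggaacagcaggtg
Dhx38 exon 3, chr8:109561949-109562136, minus strand: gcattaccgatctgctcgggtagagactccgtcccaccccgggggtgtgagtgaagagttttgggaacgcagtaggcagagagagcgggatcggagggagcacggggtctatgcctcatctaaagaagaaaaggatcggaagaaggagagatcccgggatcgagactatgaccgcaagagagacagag
Ddx21 exon 2, chr10:62598232-62598468, minus strand: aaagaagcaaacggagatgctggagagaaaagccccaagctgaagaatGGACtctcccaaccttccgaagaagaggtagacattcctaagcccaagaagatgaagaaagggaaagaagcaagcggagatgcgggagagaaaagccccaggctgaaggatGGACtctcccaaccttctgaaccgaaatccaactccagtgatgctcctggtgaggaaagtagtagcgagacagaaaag
Ddx42 exon 18, chr11:106247954-106248094, plus strand: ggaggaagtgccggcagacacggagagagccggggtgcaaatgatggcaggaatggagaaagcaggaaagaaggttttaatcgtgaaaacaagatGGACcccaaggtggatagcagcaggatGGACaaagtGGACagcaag
Ddx39 exon 5, chr8:83720957-83721139, plus strand: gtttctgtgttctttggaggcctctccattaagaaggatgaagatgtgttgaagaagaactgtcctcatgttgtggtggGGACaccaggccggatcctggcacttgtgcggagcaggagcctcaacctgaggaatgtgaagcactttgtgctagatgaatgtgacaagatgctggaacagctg
The Dhx16 stretch holds 5 GGAC and the Ddx42 stretch 3, whereas those of Dhx9, Ddx3y, Ddx46 and Dhx38 hold none. Among the 4 peaks with identical ends, the motif was thus found in that of Dhx16 alone.

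Helicase genes carried peaks more often than protein-coding genes as a whole. In replicate 1, 28 of 53 (52.8%) had a sense peak, against 22.1% of all protein-coding genes, and in replicate 2 36 (67.9%), against 26.8%. Both libraries had a peak in 25 members (47.2%, exact binomial 95% interval 33.3 to 61.4), against 17.1%. The interval covers counting error only. It treats genes as independent draws, whereas the 53 are the whole set and include paralogs, and it is not a test against all genes. Overlapping peaks, with 1 bp or more in common on the same strand, were found in 18 members (34.0%), against 9.09%. The gap narrowed among genes with a peak in either library: 25 of 39 such members (64.1%) had one in both, against 53.8% of all such genes. All protein-coding genes include those that macrophages do not express, and the part of mRNA abundance in these shares was not tested.

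**Figure D1:**
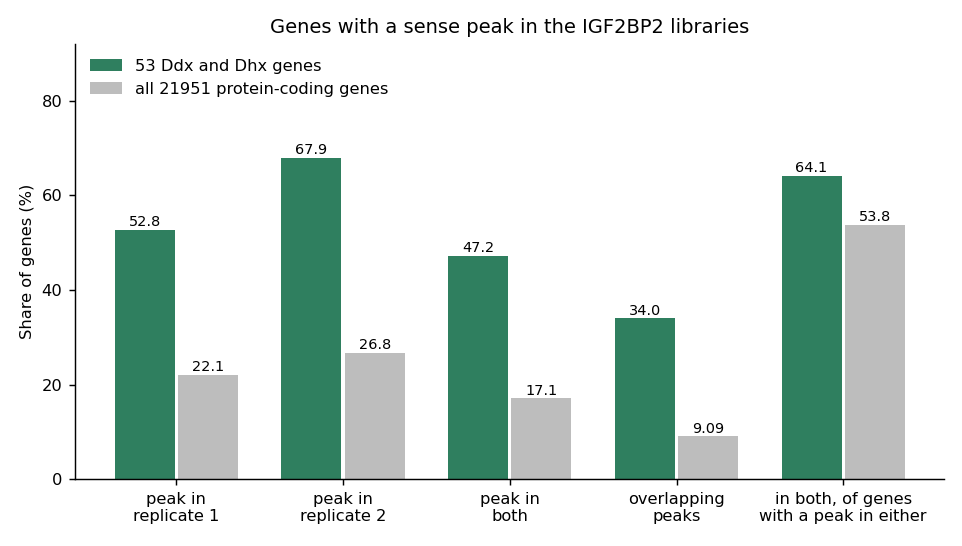
Share of genes (%, y axis) with a sense peak in each library, in both, or at overlapping positions, for the 53 helicase genes (green) and all 21951 protein-coding genes (grey). The helicase share is higher in each pair of bars, from 52.8% against 22.1% in replicate 1 to 64.1% against 53.8% among genes with a peak in either library.

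The peaks themselves were of ordinary or modest strength. Members with a peak had a median of 15 and 19.5 summed tags, against 11 and 14 in other protein-coding genes with a peak; per kb of mRNA the medians were 4.26 and 5.58, against 3.27 and 4.66. A single member peak had a median of 6 and 9 tags, against 8 and 9. The strongest member peaks had 30 and 55 tags, whereas the strongest peaks of other genes had 11155 and 13688. Peaks of 20 tags or more made up 5.88% and 14.6% of member peaks, against 11.7% and 17.7% of the others. The highest summed counts of a member were 89 tags in replicate 1 (Ddx46) and 132 in replicate 2 (Ddx17), well under the 1030 and 1880 of the macrophage receptor gene Mrc1.

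Genes of pre-mRNA splicing and mRNA export held the largest part of the tags, 300 of 598 in replicate 1 and 606 of 1173 in replicate 2. Of these 15 genes, 11 had a peak in replicate 1 and 12 in replicate 2, 10 in both and 9 at overlapping positions. The 16 ribosome biogenesis genes followed with 8, 11, 7 and 6 on the same counts, and 179 and 251 tags. Of the 8 genes of translation and cytoplasmic mRNA fate, 6 and 7 had a peak and 6 had one in both, but in 2 the positions overlapped. The 4 nucleic-acid sensors had 2, 2, 1 and 1, all overlap being in Dhx9. Of the 2 mitochondrial genes Ddx28 alone had a peak, of 4 tags in replicate 2, and the 2 germ-cell genes, Ddx4 and Ddx43, had none. The 6 remaining genes had 1, 3, 1 and 0. With groups of 2 to 16 genes, differences between roles were not tested.

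**Figure D2:**
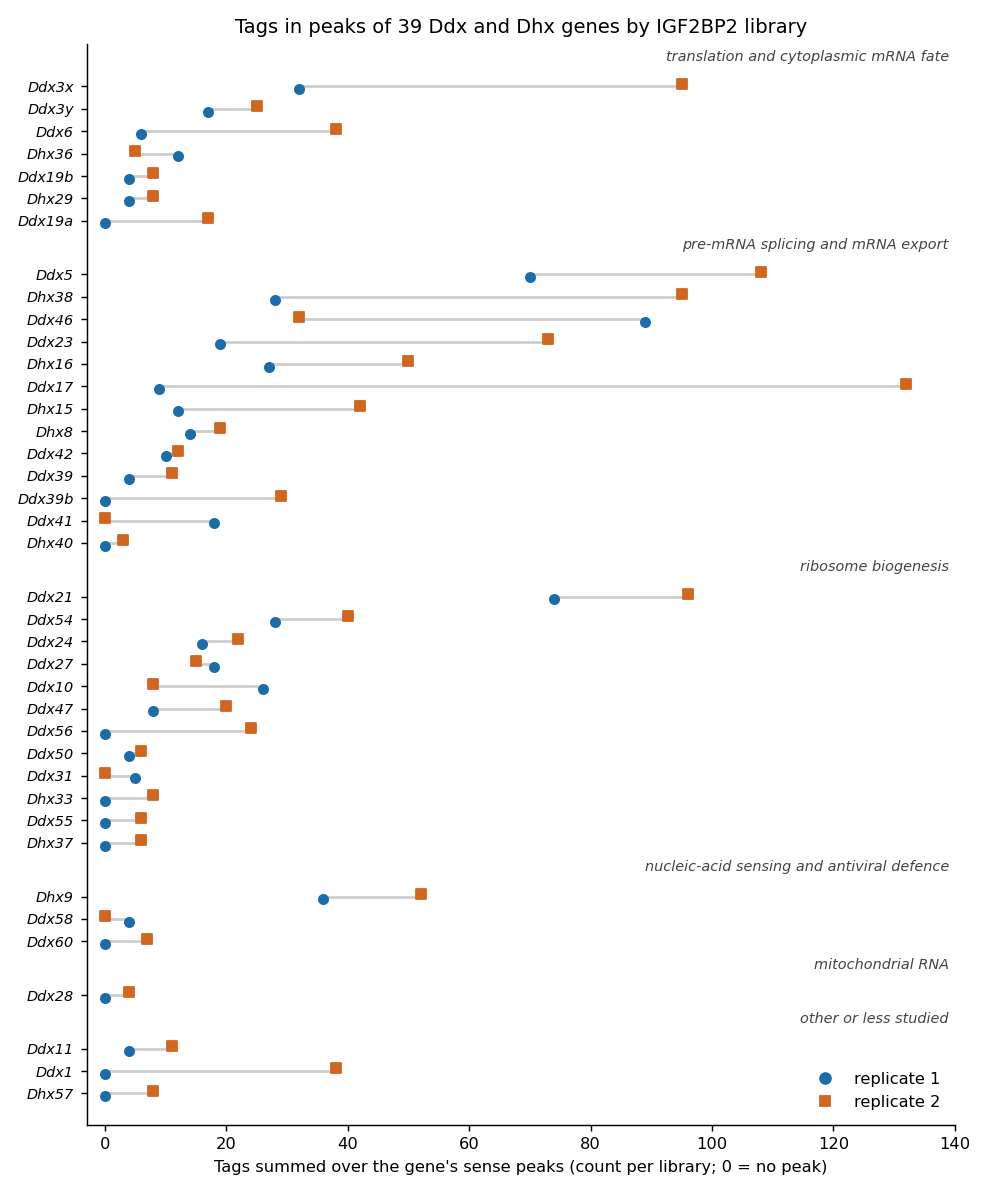
Tags summed over the sense peaks of each of the 39 helicase genes with a peak (x axis, count per library), by role, with replicate 1 as blue circles and replicate 2 as orange squares. Ddx21 and Ddx5 are high in both libraries, while Ddx17 (9 and 132 tags) and Ddx46 (89 and 32 tags) lie far apart between them.

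Among the splicing helicases, Ddx5, which encodes a splicing factor and transcriptional coactivator, had 70 tags in replicate 1 and 108 in replicate 2, in 3 peaks each. The authors' annotation put most of every Ddx5 peak in an intron. Divided by the length of the mRNA these counts are 19.7 and 30.3 tags per kb, but much of each peak lies outside that length, so the values are not a density on the mRNA. The position found in both libraries ran over chr11:106783636-106783948 with 26 tags in replicate 1 and chr11:106783630-106784018 with 22 in replicate 2, on the minus strand, and the summits were 6 nt apart. Exon 11 of the principal transcript lies at the edge of it, covering 15.4% of the replicate 2 peak and none of the other. Both peaks, and another of 22 tags at chr11:106782791-106783157 in replicate 1, lie wholly within exon 11 of Ddx5-208, annotated as a nonsense-mediated decay transcript. Exon 3 of Ddx5-202, annotated as a retained-intron transcript, covers 69.0% of the repeated peak in replicate 1 and 73.5% in replicate 2. Which transcript the tags came from was not tested. The strongest peak of any member, 55 tags in replicate 2 over 1168 nt, began in exon 1 of Ddx5 and ran into its first intron; replicate 1 had no peak there.

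Ddx17 encodes the close relative of the Ddx5 protein and differed most between the libraries. It had 9 tags in 1 peak in replicate 1 and 132 in 7 peaks in replicate 2, and none of these overlapped. As a share of the tags in sense gene peaks, that was 8.16 times higher in replicate 2. Ddx46, whose product takes part in branch-site recognition, went the other way, with 89 tags in 7 peaks in replicate 1 and 32 in 3 peaks in replicate 2, a share 0.2 times that of replicate 1. Its strongest peak, 30 tags over exon 5 in replicate 1, had no counterpart, while exons 2 and 14 were found in both, with 7 and 9 tags and with 6 and 9 tags. Ratios of 4-fold or more in either direction occurred in 4 of the 25 members with a peak in both libraries (16.0%), namely Ddx17, Ddx46, Ddx10 and Dhx36, against 6.38% of 3729 other genes. Spearman's rho of the summed tags was 0.643 over these 25 members and 0.763 over the other genes, as a description of 2 libraries.

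Each of 4 DEAH-box helicases of the spliceosome had a position found in both libraries. Dhx38, which remodels the spliceosome before the second step, had 28 and 95 tags. Its repeated position was exon 3, at chr8:109561949-109562136 with 16 tags in replicate 1 and out to chr8:109562223 with 24 in replicate 2. Dhx38 was also the one member with antisense peaks, 2 of 3 tags each in replicate 1, on the plus strand opposite exons 2 and 3. These were left out of all counts except in the alternative setting that counts antisense peaks. Dhx16, needed to activate the spliceosome, had 27 and 50 tags, of which 16 and 19 lay in exon 3. Dhx15, which takes the spliceosome apart, had 12 and 42 tags, with exon 5 in common at 6 and 10. Dhx8, which releases the finished mRNA, had 14 and 19, with 2 positions in common in exons 5 and 6; its exon 6 peak in replicate 1 held 8 GGAC, the most of any member peak in a single exon.

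Of the remaining splicing and export genes, Ddx23, a helicase of early spliceosome activation, had 19 and 73 tags, with exons 11 and 12 in common. These Ddx23 peaks meet at the exon junction in both libraries. Ddx42 had 10 and 12 tags and Ddx39, an mRNA export factor, 4 and 11, each with 1 position in common. Ddx39b, the other export paralog, had a single peak of 29 tags over its start codon in replicate 2 and none in replicate 1. Ddx41 had 18 tags in 3 peaks in replicate 1 and none in replicate 2. In replicate 1, 2 of these 3 Ddx41 peaks lie opposite an exon of the antisense gene Gm46416, and how strand was kept in the libraries is not known here.

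In the ribosome biogenesis group Ddx21, a nucleolar helicase of rRNA transcription and processing, tied with Ddx5 for the highest mean rank of summed tags, and Ddx5 ranked ahead of it by tags per kb of mRNA and by strongest peak. It had 74 tags in replicate 1 and 96 in replicate 2, in 8 peaks each, or 15.7 and 20.3 tags per kb of mRNA. Its peaks overlapped at 6 places, in exons 1, 2, 6, 7 and 8, more than in any other member. Those of exons 7 and 8 meet at the exon junction in replicate 1, and those of exons 1 and 2 in replicate 2. In the other library 1 peak of each pair runs on into the intron. Ddx54 had 28 and 40 tags, with overlaps in exons 1 and 10. Ddx24 had 16 and 22, where 2 peaks of replicate 1 fell under 1 wide peak of replicate 2 in its second exon. Ddx27 had 18 and 15 tags, with exons 15 and 16 in common, where the peaks meet at the exon junction in both libraries. Ddx47 had 8 and 20, with exons 11 and 12 in common, where the peaks meet at the junction in replicate 1. Ddx10 had 26 and 8, sharing exon 7 alone, and Ddx50, the paralog of Ddx21, had 4 and 6 without overlap. Of the 7 genes of this group with a peak in both libraries, 6 thus had overlapping positions, most at under 20 tags a peak.

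Ddx3x, whose product helps ribosomes through structured 5′ leaders, led the translation group with 32 tags in replicate 1 and 95 in replicate 2. Its repeated position spanned the stop codon in exon 17 of 17, at chrX:13291413-13291801 with 15 tags and chrX:13291413-13291834 with 26, mostly in the 3′ UTR. Ddx3y, its homolog on the Y chromosome, had 17 and 25 tags, with 11 in each library in exon 5. The coding sequences of Ddx3x and Ddx3y are 84.7% identical, so reads could in part be placed on either. Within the repeated Ddx3y peak, 26 of 156 aligned bases differ from Ddx3x. D1Pas1, a related autosomal gene 87.4% identical to Ddx3x, had no listed peak in either library, though reads outside listed peaks are not seen here. Ddx6, a P-body protein of mRNA repression and decay, had 6 tags in replicate 1, all in an intron, and 38 in replicate 2, in an intron and the 3′ UTR. Dhx36, which unfolds G-quadruplexes, had 12 and 5 tags, and Ddx19b and Dhx29 4 and 8 each, none overlapping. Ddx19a, 93.6% identical to Ddx19b in coding sequence, had 17 tags in replicate 2 alone, in coding sequence and the 3′ UTR. Reads of its coding peaks could in part be placed on either gene. The Ddx19b peaks lay wholly in the 3′ UTR, where the sequences of the pair were not compared.

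Among the sensors, Dhx9, also a nuclear helicase of many RNAs, had 36 tags in replicate 1 and 52 in replicate 2. Exon 13 carried 16 and 10 of them at identical ends, and exon 12 next to it 10 and 20. In replicate 2 these peaks meet at the exon junction, so they may hold fragments in common. In replicate 1 the exon 12 peak runs on into the intron. Ddx58 had 4 tags in replicate 1 and none in replicate 2, Ddx60 none and 7, and Dhx58, a regulator of RIG-I signalling, had no peak. In the last group Ddx11 had 4 and 11 tags without overlap. Ddx1, whose product belongs to the tRNA ligase complex, had 38 tags in 6 peaks in replicate 2 and none in replicate 1, the highest count of any member seen in 1 library.

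In all, 3 members had a peak in replicate 1 alone, led by Ddx41 (18 tags) and Ddx31 (5), and 11 in replicate 2 alone, led by Ddx1 (38) and Ddx39b (29). No peak was listed in either library for 14 members: Ddx4, Ddx18, Ddx20, Ddx25, Ddx43, Ddx49, Ddx51, Ddx52, Ddx59, Dhx30, Dhx32, Dhx34, Dhx35 and Dhx58. Since the lists begin at 3 tags and carry no depth, such a gene is one without a listed peak, not one shown to be unbound.

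**Figure D3:**
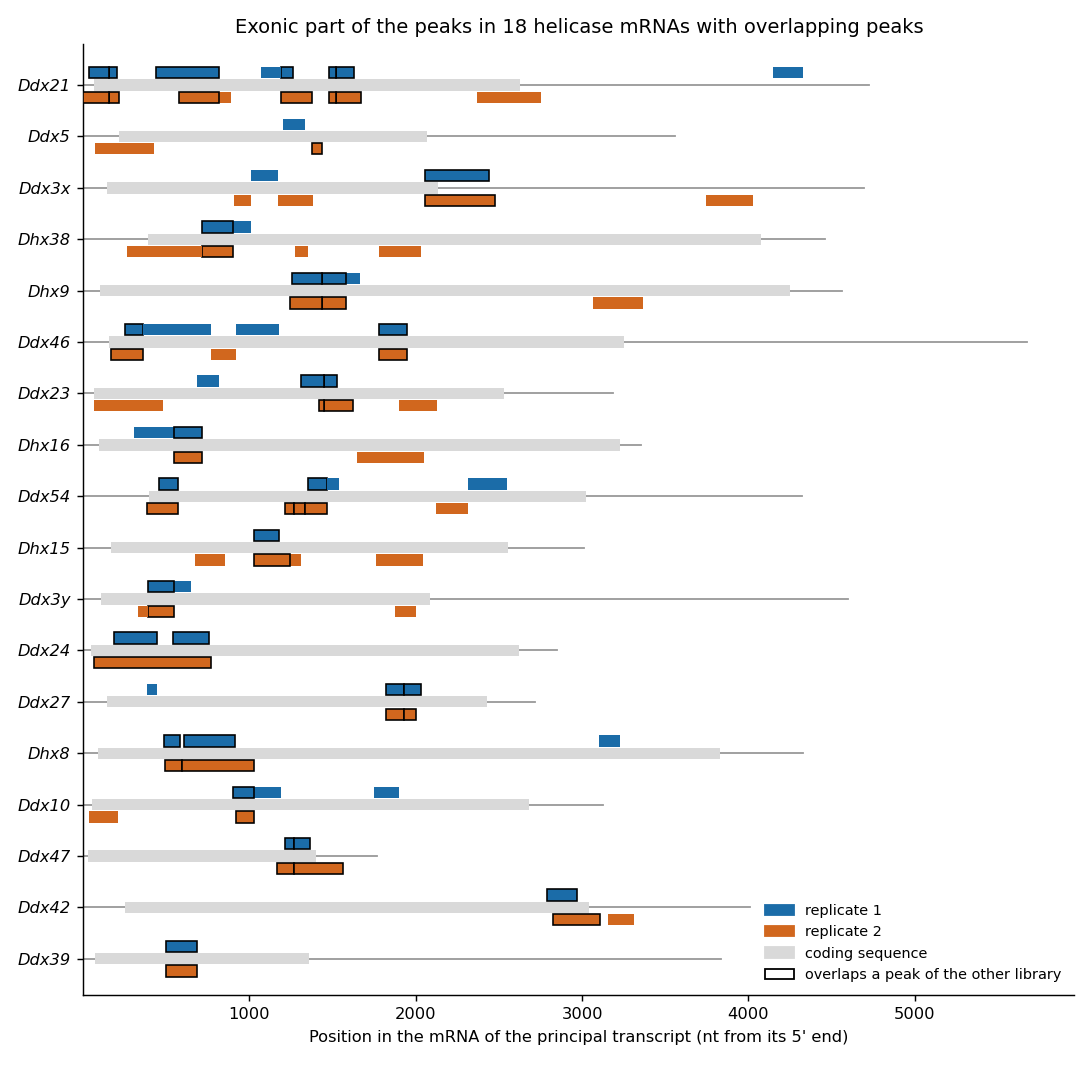
Exonic part of every sense peak in the 18 helicase mRNAs with overlapping peaks, as position in the principal transcript (x axis, nt from its 5′ end), with replicate 1 above (blue) and replicate 2 below (orange) the coding sequence (grey bar). Black outlines mark peaks that overlap one of the other library; most lie in coding sequence, and that of Ddx3x crosses the stop codon. For Ddx5 little is drawn because its peaks are mainly intronic.

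Member peaks lay in coding sequence more often than other peaks, and less often in introns. By the region covering most of the peak in the authors' annotation, 69.1% of member peaks in replicate 1 (47 of 68, exact binomial 95% interval 56.7 to 79.8) and 68.9% in replicate 2 (71 of 103, 59.1 to 77.7) were coding, against 47.1% and 44.7% of peaks in other protein-coding genes. Introns had 23.5% and 21.4%, against 37.0% and 40.1%, and 3′ UTRs 5.88% and 8.74%, against 12.5% and 11.8%. Peaks of 1 gene share a source, so these shares were not tested. The coding share of the overlapping peaks was 87.1% (27 of 31) and 86.7% (26 of 30), against 59.0% and 55.4%.

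Peak ends often fell on exon boundaries. Within a single exon of the principal transcript lay 48 member peaks (70.6%) in replicate 1 and 54 (52.4%) in replicate 2, against 48.2% and 44.3% of other peaks. Of these, 83.3% and 81.5% began or ended exactly at an annotated exon boundary, against 69.1% and 70.2%, and 39.6% and 38.9% did so at both ends, against 33.2% and 36.2%. Of the 31 overlapping pairs of member peaks, 20 (64.5%) had the same start or the same end, against 41.7% of 5054 other pairs. The summits were a median of 35 nt apart in member pairs and 30 nt in the others. The libraries differed in peaks that covered exon and intron together: 12 (17.6%, in 11 genes) in replicate 1 and 43 (41.7%, in 23 genes) in replicate 2, against 19.7% and 22.5% of other peaks. Wholly intronic peaks were 8 (11.8%) and 5 (4.85%), against 29.2% and 30.3%.

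**Figure D4:**
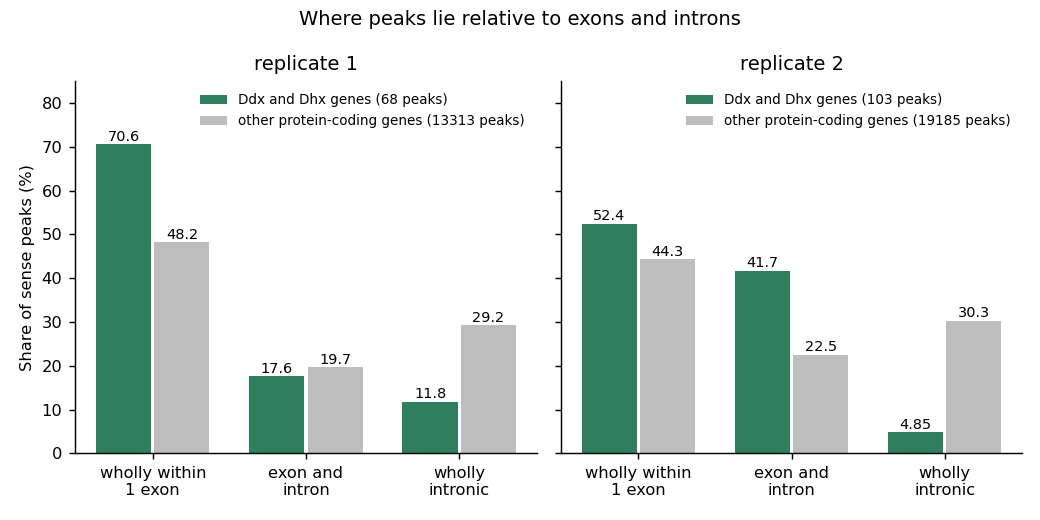
Share of sense peaks (%, y axis) within 1 exon, over exon and intron, and wholly intronic, for the helicase genes (green) and other protein-coding genes (grey), 1 panel per library. Wholly intronic peaks are 11.8% and 4.85% of helicase peaks against 29.2% and 30.3%; peaks over exon and intron stand above the other genes in replicate 2 (41.7% against 22.5%) and not in replicate 1 (17.6% against 19.7%).

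The share of member peaks with GGAC was close to that of other windows of the same mRNAs. The motif was sought on the mRNA strand in peaks within 1 exon, and a match is only a match of letters, not a modified site. It was present in 21 of 48 such peaks in replicate 1 (43.8%, exact binomial 95% interval 29.5 to 58.8) and 23 of 54 in replicate 2 (42.6%, 29.2 to 56.8). Windows of the same length anywhere in the same mRNAs held it in 42.3% and 42.1% of cases, and exonic peaks of other genes in 51.9% and 51.7%. The peaks of other genes were not matched for length: their median was 146 and 151 nt, against 131.5 and 148 nt in members. Per kb member peaks held 5.99 and 5.26 GGAC, against 4.84 and 4.71 in the others, but with peaks extended by 50 nt the order was kept in replicate 1 (6.18 against 4.77) and turned round in replicate 2 (4.53 against 4.74). Dhx16 exon 3, with 5 matches, and Dhx8 exon 6, with 8, were among the member peaks that held the most.

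Few members had a peak over the codons of the DEAD or DEAH box. Stretches counted as the box encode Asp-Glu, a residue that varies, and then Asp or His. They include forms other than DEAD and DEAH, such as DECD in Ddx39, DEVD in Ddx21 and DEIH in Dhx9. An in-frame stretch of this kind occurred once in the coding sequence of 47 members. A peak covered it in 2 of these (4.26%) in replicate 1 and 5 (10.6%) in replicate 2, while peaks covered 6.01% and 9.6% of the coding sequence of the same genes. The former are shares of genes and the latter shares of bases, and with 2 and 5 genes the difference was not tested. Ddx39 was the one member with a peak over it in both, and its box codons, gatgaatgtgac, lie within the Ddx39 stretch shown above. The others were Dhx9 in replicate 1 and Ddx21, Ddx3x, Ddx56 and Dhx16 in replicate 2.

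Helicases outside the Ddx and Dhx names and the helicases' partners were tagged as well. Of 19 related helicase genes, 9 had a peak in replicate 1, 13 in replicate 2, 7 in both (36.8%) and 3 at overlapping positions (15.8%). These were Snrnp200, the spliceosomal helicase of the U5 particle, with 35 and 106 tags, Eif4a1, the cap-binding complex helicase, with 40 and 37, and Mtrex, the exosome's helicase, with 14 and 31. In both libraries and at overlapping positions the Ddx and Dhx genes had 47.2% and 34.0%, and all protein-coding genes 17.1% and 9.09%. Of 33 partners and cofactors, 26, 24, 23 (69.7%) and 15 (45.5%) were found on the same counts. The highest were the partners of Eif4a: Eif4g1 had 247 and 270 tags, Eif4b 131 and 174, Eif4h 121 and 141 and Eif4g2 69 and 204. Per kb of mRNA Eif4g1 had 43.8 and 47.9 tags.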

How the data were processed

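RNA from 2 IGF2BP2_IP libraries of BMDMs was analysed; the 2 input libraries were not used here. The tools named in the submitters' processing notes are TopHat2 and bcl2fastq, with build GRCm38. Which caller made the peaks, at which threshold and whether with input was not stated in these sources. According to the deposited headers and values, the authors deposited a whole tag count and a maximum height (a coverage signal) for each peak, called per library. In the deposited files start and summit count from 0: start plus 1 matched an annotated exon start in 3954 and 5651 of 13591 and 19662 sense gene peaks, the start itself in 27 and 40. All positions here count from 1.

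Gene identifiers without version matched GENCODE M21 in 99.7% and 99.8% of cases; the principal, then longest, transcript stood for each gene. Peaks were joined to genes by the authors' identifier, antisense peaks left out, and overlaps of at least 1 bp on the same strand were counted (Python 3.11.15, pandas 2.3.3, scipy 1.17.1, Biopython 1.88), after a check on simulated peaks. With 1 group of libraries there was no contrast to test. All members are counted; those with overlapping peaks are named, the first 12 by mean rank of summed tags in full, then those of 1 library and of none. Members, lists and tests were chosen with earlier results of these data known.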

Additional observations from a re-analysis of the deposited data

How the results depend on the processing

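The count of helicase genes with a peak in both libraries (25 of 53) lay between 17 and 25 in most settings, against 11.6% to 17.8% of all protein-coding genes. These settings were peaks of at least 6 tags, equal list lengths, exonic peaks only, antisense peaks counted, and genes assigned by position. With replicate 1 or 2 taken alone, the count is of a peak in that library. It was 28 and 36, against 22.1% and 26.8%. With the stronger 50% of each list the count in both libraries fell to 12 of 53, against 8.14% of all protein-coding genes. The overlapping count (18 of 53) fell to 9, against 5.99%. Its other alternatives gave 15 to 18, against 7.5% to 9.42%. Of the first 12 members, 11 stayed among the first 12 under each other ranking tried. Taking the maximum height of each gene's strongest peak in place of summed tags, the members' share was 0.544% and 0.518%. By the reference annotation at the summit, 80.9% and 81.6% of member peaks were coding, against 53.5% and 53.1% of peaks in other protein-coding genes. Intronic were 13.2% and 8.74%, against 29.9% and 30.6%. By the authors' region, overlapping member peaks were coding in 87.1% and 86.7%, against 59.0% and 55.4%. They were intronic in 9.68% and 6.67%, against 24.1% and 27.4%. In the stronger 50%, GGAC occurred in 55.0% (11 of 20) of member peaks in replicate 1 and 48.4% (15 of 31) in replicate 2. Windows of the same mRNAs held it in 44.9% and 48.6%, and peaks in other genes in 57.1% and 57.3%. With peaks extended by 50 nt, GGAC occurred in 64.6% of member peaks in replicate 1 and 53.7% in replicate 2. Windows of the same mRNAs then held it in 60.2% and 60.8%, and peaks in other genes in 68.8% and 69.6%. The cause of these shifts was not tested, other than that the stronger 50% holds fewer peaks. No paired analysis was possible because no values of the 2 input libraries were analysed here, so no result comes from a test between groups. Unknown depth and counts of 3 to 10 tags in many peaks limit what a missing peak can say.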
